A study of Rattus norvegicus with 20 samples.

Results

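Collagens are the structural proteins of the extracellular matrix, and 40 collagen genes were followed here in the supraoptic nucleus (SON) of the rat. The members are the genes whose symbol is Col, a number, a and a number, with a mean normalised read count of at least 10 in each of the 3 comparison tables. They make up 40 of the 45 rows (44 symbols) that carry such a name, out of 32402 genes in each table, and they fall into 10 fibrillar, 6 basement membrane (type IV), 6 type VI and 18 other collagens. Of the 5 rows left out, Col1a2, Col23a1 and 1 of the 2 Col15a1 rows are listed at 0 in every rat. The other Col15a1 row had a mean of at most 3.47 and Col10a1 of at most 2.79, while Col6a4, just inside the limit, had a mean of at least 20.7.

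The SON of the hypothalamus holds magnocellular neurones that make vasopressin and oxytocin, and the study asked how ageing and dehydration (DH) change its transcriptome. Male Wistar Han rats were used throughout, 5 in each of 4 groups: adult (3 months) euhydrated (EH), adult DH, aged (18 months) EH and aged DH. The labels give a DH of 2 days, the study's methods give a longer time, and EH rats drank freely. RNA came from punches of the left and right SON, so neighbouring tissue may be present, and poly(A) RNA was sequenced. The study also calls its adult datasets earlier work, while its methods state that both ages were handled in parallel and that RNA isolation and sequencing took place together.

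Each collagen is a triple helix of α chains, each chain from its own gene, and the classes differ in what they build. Fibrillar collagens assemble into fibres, in the brain mostly in the meninges and around larger vessels. Type IV collagens form the sheet of the basement membrane under endothelium and around pericytes, smooth muscle and the pial surface, type VI collagens form beaded filaments next to it, and the remaining classes decorate fibrils (the fibril-associated collagens), form small networks or span the cell membrane.

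The genes of type IV lie in pairs, head to head, on opposite strands. In the RefSeq annotation of the GRCr8 assembly, 76 bases lie between the starts of Col4a1 and Col4a2, 412 between Col4a3 and Col4a4 and 1414 between Col4a5 and Col4a6. The sequence between Col4a1 and Col4a2 and the 250 bases before Col4a5 and before Col4a6 are shown because both pairs recur below, with GGGCGG or its reverse complement in capitals.
Col4a1-Col4a2, chr16:84885521-84885596, strand of Col4a1: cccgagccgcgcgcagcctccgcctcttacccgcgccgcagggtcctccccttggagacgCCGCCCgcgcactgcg
Col4a5, chrX:109907109-109907358, forward strand: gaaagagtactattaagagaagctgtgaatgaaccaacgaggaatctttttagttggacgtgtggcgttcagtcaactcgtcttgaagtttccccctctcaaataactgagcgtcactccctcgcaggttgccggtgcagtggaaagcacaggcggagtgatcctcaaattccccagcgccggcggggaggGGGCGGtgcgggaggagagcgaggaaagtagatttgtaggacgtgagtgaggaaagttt
Col4a6, chrX:109905945-109906194, reverse strand: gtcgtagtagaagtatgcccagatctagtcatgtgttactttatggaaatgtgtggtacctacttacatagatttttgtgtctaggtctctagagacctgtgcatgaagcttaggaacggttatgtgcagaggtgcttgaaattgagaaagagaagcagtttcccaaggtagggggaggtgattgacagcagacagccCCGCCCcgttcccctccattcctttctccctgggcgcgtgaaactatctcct

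The motif GGGCGG was present, on either strand, in the 250 bases before the start of 18 of the 31 members found by symbol in the promoter set used, against 30.5% of the 33469 entries of all genes. The 9 members not found in that set include Col1a1 and Col3a1. CCAAT was present in 9 of the 31 (34.0% of all entries) and TATAAA in 2 of the 31 (12.9% of all entries). These matches describe letters in a window and were not tied to the counts below.

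Libraries held 24268398 to 30348118 reads assigned to genes, and replicate libraries of a group correlated at 0.989 to 0.992 (Pearson, across genes, log2 scale). All 9 markers of magnocellular neurones were measured in every group. Markers of the choroid plexus were low, with 329 to 963 normalised counts summed over its 7 markers. Otx2 was at 0 in every rat, but so was Col1a2, although Col1a1 of the same collagen type was counted. A row at 0 may therefore not mean absent RNA. A gene was called where limma on log2(normalised count + 1) gave a Benjamini-Hochberg adjusted p under 0.05 over all genes tested, and LFC is the log2 fold change on that scale. Of the 921 genes called with ageing 45.0% were higher. After rescaling each library to the same total, 1049 genes were called and 28.8% of these were higher. In adult DH the share was 60.6% of 1934 genes called, and 43.4% of 2051 after that rescaling. Levels are not compared between genes, since counts are not per length.

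In EH rats, some members of each of the 4 classes were lower in aged than in adult animals, 3 of 10 fibrillar, 2 of 6 basement membrane, 3 of 6 type VI and 5 of 18 other collagens. Of the 40 members 13 fell and 0 rose in aged EH against adult EH rats, beside 5.99% of all 15369 genes called in this comparison (3.30% lower and 2.69% higher). At an unadjusted p under 0.05 the members numbered 22, beside 20.3% of all genes. Of all members 32 had an LFC below 0, with a median LFC of −0.19, against 0.00033 over all genes tested. In 11 members the 2 groups were fully separate, against 6.38% of all genes. Of 29 markers of fibroblasts 12 fell as well, and their part in the collagen differences was not tested. In bulk tissue, fewer cells of a type and less RNA per cell cannot be told apart. Rescaled libraries left 0 higher and 13 or 14 lower members.

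**Figure D1:**
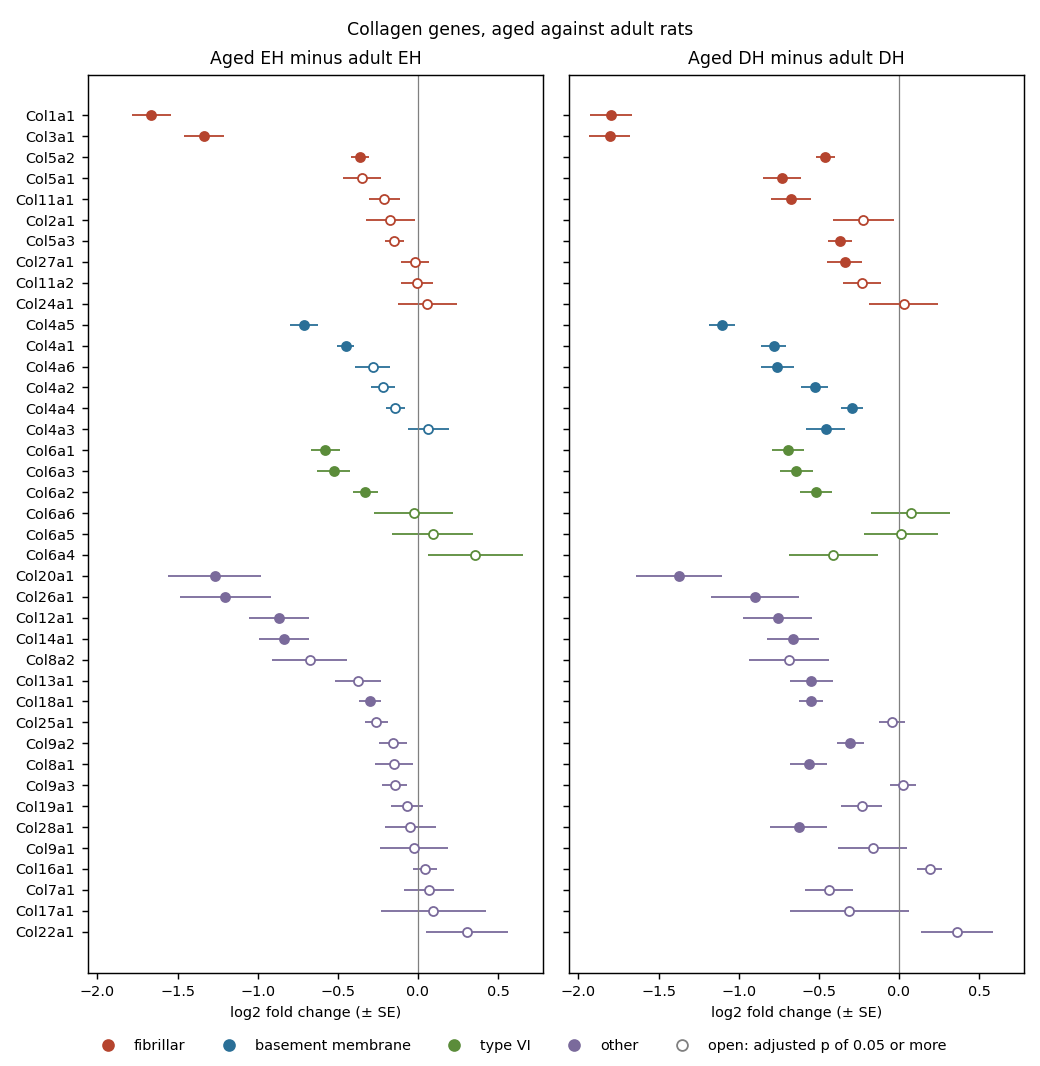
LFC ± SE (x axis) of each of the 40 collagen genes (y axis, by class) for aged against adult rats under EH (left) and under DH (right, all rats on a common scale), n = 5 per group. Filled points passed limma's adjusted p of 0.05, 13 on the left and 25 on the right, and all of these lie below 0.

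The fibrillar class held the members with the lowest LFC. Col1a1, the main chain of type I collagen, counted 1891, 1974, 2158, 2193 and 2424 in adult EH rats and 456, 707, 715, 734 and 789 in aged EH rats. The highest aged rat was thus far below the lowest adult rat, and the LFC was −1.66 (SE 0.12, limma adjusted p = 2.76e-05), or 3.17-fold lower. Col3a1, the chain of type III collagen of vessel walls and meninges, counted 3438, 3574, 3857, 3894 and 3933 in adult EH rats and 1057, 1400, 1463, 1563 and 2079 in aged EH rats. Again no values overlapped, with an LFC of −1.34 (SE 0.13, limma adjusted p = 9.3e-05). Col5a2, a type V chain that takes part in starting fibrils, ranged from 1694 to 1898 in adult EH and from 1255 to 1576 in aged EH rats (LFC −0.36, SE 0.06, limma adjusted p = 0.00297).

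The other 7 fibrillar members did not pass. Col5a1, the partner of Col5a2, had an LFC of −0.35 (SE 0.12, limma adjusted p = 0.112) with 589 to 822 counts in adult and 415 to 657 in aged EH rats. Col11a2, which had the highest mean count of the class, ranged from 3830 to 5058 in adult EH and from 3523 to 5441 in aged EH rats, with an LFC of −0.01 (SE 0.10). Col24a1 had the highest LFC of the class at 0.06. The fibrillar fall was therefore uneven among the members, from 3.17-fold in Col1a1 to an LFC near 0 in Col11a2 and Col27a1.

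Of the 6 basement membrane chains, Col4a5 and Col4a1 fell. Col4a5, a chain of the α3α4α5 and α5α6 networks, counted 1088, 1146, 1164, 1190 and 1234 in adult EH rats and 553, 686, 763, 785 and 794 in aged EH rats (LFC −0.71, SE 0.08, limma adjusted p = 0.000394). Col4a1, which with Col4a2 makes the network of all basement membranes, counted 2088, 2342, 2366, 2451 and 2596 in adult EH rats and 1611, 1683, 1721, 1783 and 1845 in aged EH rats. Neither gene overlapped between the groups, and the LFC of Col4a1 was −0.45 (SE 0.05, limma adjusted p = 0.000436). Col4a2, whose start lies next to that of Col4a1, ranged from 2049 to 2536 in adult and from 1627 to 2169 in aged EH rats (LFC −0.22, SE 0.07, limma adjusted p = 0.107). Col4a6 (LFC −0.28), Col4a4 (LFC −0.14) and Col4a3 (LFC 0.07) did not pass either.

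In type VI the chains of the classical heterotrimer fell and the rest did not pass. Col6a1 counted 1001, 1008, 1093, 1144 and 1164 in adult EH rats and 566, 685, 779, 802 and 819 in aged EH rats (LFC −0.58, SE 0.09, limma adjusted p = 0.00257). Col6a3 ranged from 743 to 824 in adult and from 408 to 657 in aged EH rats (LFC −0.53, SE 0.10, limma adjusted p = 0.00894). Both were without overlap. Col6a2 overlapped, at 1398 to 1610 in adult and 1038 to 1427 in aged EH rats (LFC −0.33, SE 0.08, limma adjusted p = 0.0269), and its call was lost without any one of aged EH replicates 4, 5 and 6 or adult EH replicates 1, 2 and 4 (adjusted p 0.0534 to 0.0635). The chains Col6a4, Col6a5 and Col6a6 had LFC of 0.36, 0.09 and −0.03 at mean counts of at most 44.3.

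Among the other collagens, 3 fibril-associated members, Col18a1 and Col26a1 fell. Col12a1, which binds type I fibrils, counted 989, 1062, 1431, 1442 and 1551 in adult EH rats and 490, 571, 651, 814 and 1122 in aged EH rats, so that aged replicate 1 lay inside the adult range (LFC −0.87, SE 0.19, limma adjusted p = 0.0171). Col14a1, its close relative, ranged from 175 to 285 in adult and from 89.0 to 163 in aged EH rats (LFC −0.84, SE 0.16, limma adjusted p = 0.00735). Col18a1, a vascular basement membrane collagen whose end fragment is endostatin, ranged from 1680 to 1976 in adult and from 1192 to 1542 in aged EH rats (LFC −0.30, SE 0.07, limma adjusted p = 0.0194).

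Col20a1, a fibril-associated collagen, counted 47.1 to 78.1 in adult EH rats, against 14.8 to 25.2 in 4 aged EH rats and 54.3 in aged EH replicate 1. That single aged rat was in the adult range, and the LFC was −1.27 (SE 0.29, limma adjusted p = 0.0206). Its call was lost without aged EH replicate 2 (adjusted p = 0.0525) or adult EH replicate 5 (adjusted p = 0.0562). Col26a1 ranged from 35.1 to 50.4 in adult and from 9.39 to 30.0 in aged EH rats (LFC −1.20, SE 0.29, limma adjusted p = 0.0256), with the call lost without aged EH replicate 5 or adult EH replicate 4, 5 or 6 (adjusted p 0.0526 to 0.0622). Col16a1 (LFC 0.04), Col22a1 (LFC 0.30) and Col8a2 (LFC −0.68, limma adjusted p = 0.114) did not pass. With 1 variance prior for all genes in place of one that follows the mean, 8 members passed, and Col6a2, Col12a1, Col18a1, Col20a1 and Col26a1 did not (adjusted p 0.0576 to 0.0855). Without aged EH replicate 4, the lowest aged EH rat in 19 of the 40 members, 12 members fell.

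The same ages were then compared under DH, which no deposited table does, by scaling the reads of all 20 rats together. Of the 40 members 25 fell in aged DH against adult DH rats and 0 rose, beside 12.4% of 15324 genes called (6.49% lower and 5.94% higher). An unadjusted p under 0.05 was reached by 28 members, beside 27.7% of all genes. The median LFC was −0.49, against 0.0023 over all genes tested, and 34 members had an LFC below 0. The groups were fully separate in 16 members, against 8.85% of all genes. The groups compared shared no rat with the comparison under EH. Scaling and residual variance, however, came from all 20 rats, EH rats included, so the comparisons were not independent. The counts of 25 and 13 also come from fits with unlike residual variance. All 13 members called under EH were called here, each in the same direction, together with 12 more. Without one rat at a time 20 to 26 members fell, the lowest count without adult DH replicate 1.

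All 6 basement membrane chains fell under DH. Col4a5 counted 1333, 1354, 1378, 1387 and 1449 in adult DH rats and 555, 617, 628, 705 and 722 in aged DH rats (LFC −1.10, SE 0.08, limma adjusted p = 1.37e-08), a 2.15-fold difference. Col4a1 ranged from 3114 to 3663 in adult and from 1509 to 2226 in aged DH rats (LFC −0.78, SE 0.08, limma adjusted p = 9.6e-07). Col4a6 (LFC −0.76), Col4a2 (LFC −0.53), Col4a3 (LFC −0.46) and Col4a4 (LFC −0.29) followed, and among these Col4a3 and Col4a4 overlapped between the groups.

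Of the 10 fibrillar members 7 fell under DH. Col1a1 counted 1887, 2371, 2394, 2489 and 2540 in adult DH rats and 487, 671, 718, 721 and 785 in aged DH rats (LFC −1.80, SE 0.13, limma adjusted p = 1.32e-08). Col3a1 counted 3594, 4126, 4155, 5077 and 5496 in adult DH rats and 1080, 1243, 1255, 1362 and 1440 in aged DH rats, with the same LFC of −1.80 (SE 0.13). Col5a1 (LFC −0.73, limma adjusted p = 0.000416), Col11a1 (LFC −0.67, limma adjusted p = 0.00126), Col5a2 (LFC −0.46), Col5a3 (LFC −0.37) and Col27a1 (LFC −0.34) fell as well. Col27a1 was called at an adjusted p of 0.0425 and lost the call without aged DH replicate 3, 5 or 6 or adult DH replicate 1, 2 or 5 (adjusted p 0.0584 to 0.127). Type VI fell in the same chains as under EH, Col6a1 (LFC −0.69), Col6a3 (LFC −0.64) and Col6a2 (LFC −0.52).

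Of the 18 other collagens 9 fell under DH. Col20a1 had the lowest LFC at −1.37 (SE 0.27, limma adjusted p = 0.00213), with 38.9 to 57.2 counts in adult and 12.0 to 29.7 in aged DH rats. Col8a1, a short-chain collagen of vessel walls, ranged from 340 to 393 in adult and from 220 to 322 in aged DH rats (LFC −0.56, SE 0.11, limma adjusted p = 0.00291). Col13a1, a transmembrane collagen, ranged from 270 to 337 in adult and from 170 to 241 in aged DH rats (LFC −0.55, SE 0.14, limma adjusted p = 0.0116). Col18a1 (LFC −0.55) and Col14a1 (LFC −0.66) fell in every fit without one rat. Col12a1 (LFC −0.76), Col26a1 (LFC −0.90), Col28a1 (LFC −0.63) and Col9a2 (LFC −0.30) were called at adjusted p of 0.022 to 0.0357 with all rats. Each of these 4 lost its call without adult DH replicate 1, and also without aged DH replicate 3 or 6 or adult DH replicate 2 (Col12a1), aged DH replicate 2, 3, 5 or 6 or adult DH replicate 2 or 5 (Col26a1), aged DH replicate 2, 5 or 6 or adult DH replicate 3 or 4 (Col28a1), or aged DH replicate 3 or adult DH replicate 4 (Col9a2), with adjusted p of 0.0516 to 0.0882.

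**Figure D2:**
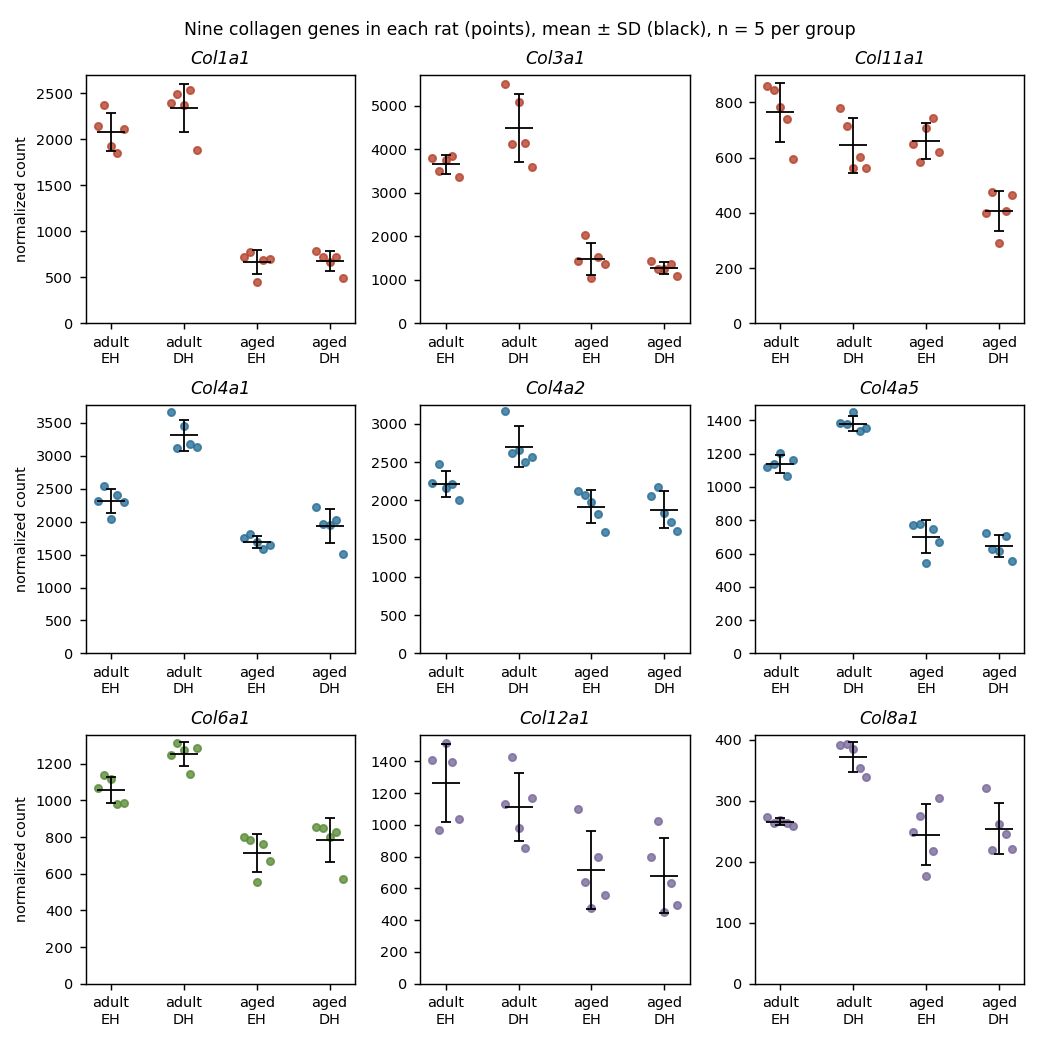
Normalised read count (y axis, from 0) of 9 collagen genes in each of the 20 rats, by group (x axis), on the scale common to all rats; points are rats, black marks mean ± SD, n = 5 per group. Col1a1 and Col3a1 are low in every aged rat with or without DH. Col1a1, Col3a1, Col4a1, Col4a2, Col4a5, Col6a1 and Col8a1 have their highest group mean in adult DH rats, and Col11a1 and Col12a1 in adult EH rats.

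In adult rats DH went with a rise in 4 of the 6 basement membrane members and in 5 of the other 34. Of the 40 members 11 were called in adult DH against adult EH rats, 9 higher and 2 lower, beside 12.7% of all 15280 genes called (7.67% higher and 4.99% lower). An unadjusted p under 0.05 was reached by 16 members, beside 26.9% of all genes. The median LFC of the members was 0.01, with 20 above and 20 below 0, against −0.0073 over all genes tested. The groups were fully separate in 9 members, against 10.9% of all genes. These adult EH rats are also the adult group of the ageing comparison under EH. Rescaling by the total or the upper quartile, or testing genes of any mean, left 7 higher and 2 lower members, without Col4a4 and Col18a1. Size factors over all 20 rats gave 5 higher and 2 lower. Col4a4, Col5a1, Col6a1, Col7a1 and Col18a1 lost their calls there, so those 5 were not all among the 9 higher members above.

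Among the basement membrane chains, 4 of 6 rose and all 6 had an LFC above 0 (median 0.28). Col4a1 counted 2000, 2247, 2270, 2352 and 2494 in adult EH rats and 3053, 3074, 3119, 3382 and 3597 in adult DH rats, with no overlap (LFC 0.51, SE 0.06, limma adjusted p = 7.38e-05). Col4a2 ranged from 1966 to 2437 in EH and from 2453 to 3114 in DH rats, where replicate 1 was the highest (LFC 0.28, SE 0.07, limma adjusted p = 0.0124). Col4a5 counted 1044, 1100, 1118, 1142 and 1182 in EH rats and 1309, 1333, 1351, 1362 and 1423 in DH rats, again without overlap (LFC 0.28, SE 0.04, limma adjusted p = 0.000508). Col4a4 overlapped and was close to the threshold (LFC 0.20, SE 0.06, limma adjusted p = 0.0495), and 9 of the 10 fits without one rat lost its call, all but the one without adult DH replicate 2 (adjusted p 0.0566 to 0.119). Col4a3 (LFC 0.38, limma adjusted p = 0.0611) and Col4a6 (LFC 0.17, limma adjusted p = 0.187) did not pass.

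In the other classes fewer members rose. Col8a1 counted 255, 259, 260, 263 and 268 in adult EH rats and 335, 347, 379, 385 and 385 in adult DH rats (LFC 0.48, SE 0.06, limma adjusted p = 0.000157). Col7a1, the chain of anchoring fibrils, ranged from 182 to 216 in EH and from 238 to 299 in DH rats (LFC 0.39, SE 0.09, limma adjusted p = 0.00877). Col6a1 ranged from 960 to 1119 in EH and from 1121 to 1287 in DH rats, so that the groups just missed each other (LFC 0.25, SE 0.05, limma adjusted p = 0.0084). Col6a1 (adjusted p = 0.113) and Col7a1 (adjusted p = 0.0899) did not pass in the limma fit of all 4 groups with size factors over all 20 rats.

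Col5a1 was the fibrillar member that rose, from 565 to 787 counts in EH to 790 to 890 in DH rats (LFC 0.31, SE 0.08, limma adjusted p = 0.0251), with the call lost without adult EH replicate 5 or adult DH replicate 1 or 2 (adjusted p 0.0575 to 0.0641). Col5a1 also did not pass in the limma fit with size factors over all 20 rats (adjusted p = 0.0889). Col1a1 (LFC 0.17, SE 0.08, limma adjusted p = 0.204) and Col3a1 (LFC 0.28, SE 0.09, limma adjusted p = 0.0628) did not pass. Col18a1 rose by an LFC of 0.18 (SE 0.05, limma adjusted p = 0.045), and the call was lost without adult EH replicate 1, 2, 5 or 6 or adult DH replicate 1, 2, 3 or 4 (adjusted p 0.0656 to 0.101).

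The members that fell in adult DH were Col25a1 and Col16a1. Col25a1, a transmembrane collagen of neurones known from amyloid plaques, counted 788, 810, 830, 831 and 986 in EH rats and 623, 637, 670, 671 and 686 in DH rats (LFC −0.37, SE 0.06, limma adjusted p = 0.00123). Col16a1, a fibril-associated collagen, ranged from 1283 to 1668 in EH and from 1072 to 1262 in DH rats (LFC −0.31, SE 0.07, limma adjusted p = 0.00854). Neither gene overlapped, and both stayed called without any one rat. In ageing under EH, Col25a1 had an LFC of −0.26 (SE 0.07) just outside the threshold (limma adjusted p = 0.0501).

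**Figure D3:**
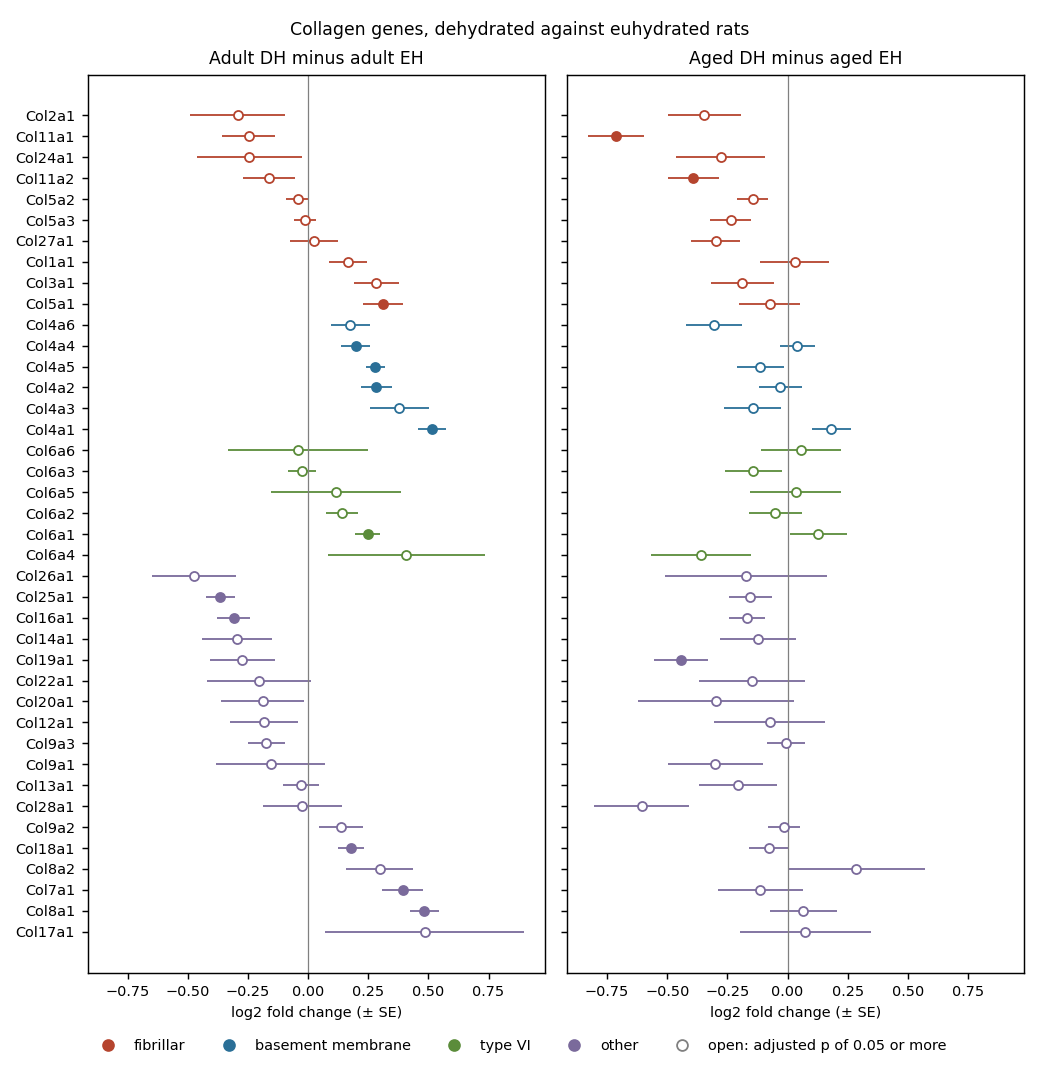
LFC ± SE (x axis) of each of the 40 collagen genes (y axis, by class) for DH against EH rats in adult (left) and aged rats (right), n = 5 per group. Filled points passed limma's adjusted p of 0.05, 11 on the left and 3 on the right. All 6 basement membrane genes lie above 0 on the left.

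DH in aged rats left 0 members higher and 3 lower, beside 7.29% of 15346 genes called (4.05% higher and 3.25% lower). An unadjusted p under 0.05 was reached by 11 members, beside 21.4% of all genes. An LFC below 0 was seen in 31 members, with a median of −0.14, against −0.003 over all genes tested. The groups were fully separate in 2 members, against 7.05% of all genes. Col11a1, a minor fibrillar chain best known from cartilage, counted 594, 630, 660, 723 and 757 in aged EH rats and 295, 407, 413, 474 and 482 in aged DH rats (LFC −0.71, SE 0.12, limma adjusted p = 0.0024). This call held without any one rat. Col19a1, a fibril-associated collagen, ranged from 190 to 247 in EH and from 134 to 189 in DH rats (LFC −0.44, SE 0.11, limma adjusted p = 0.0293), with the call lost without aged EH replicate 4 or 5 or aged DH replicate 1, 3 or 5 (adjusted p 0.0597 to 0.0829). Col11a2, the partner chain of Col11a1, ranged from 3500 to 5433 in EH and from 2871 to 4064 in DH rats (LFC −0.39, SE 0.11, limma adjusted p = 0.0395), with the call lost without aged EH replicate 1, 2, 4 or 5 or aged DH replicate 1, 3 or 5 (adjusted p 0.0515 to 0.106).

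The members that rose in adult DH did not pass in aged DH. Col4a1 counted 1609 to 1842 in aged EH and 1542 to 2270 in aged DH rats (LFC 0.18, SE 0.08, limma adjusted p = 0.201). On the scale common to all rats, aged DH replicate 6 counted 1509 for Col4a1 and the other aged DH rats 1944 to 2226. Those other rats lay above all aged EH rats (1578 to 1808), so the overlap came from that replicate. Col4a5 had an LFC of −0.11 (SE 0.10). Col8a1 (LFC 0.07) and Col7a1 (LFC −0.11) were near 0. The difference between the ages was tested directly as the age by DH interaction. By limma it passed for 0 of the 40 members and for 0 of 15326 genes (0.00%), and edgeR and DESeq2 also called 0 members, with 0 and 55 of all genes. At an unadjusted p under 0.05 the members numbered 14, beside 9.93% of all genes. The members with the lowest unadjusted p were Col4a5, with a response in aged rats lower by 0.39 on the log2 scale (SE 0.11, limma adjusted p = 0.258), Col4a6 (lower by 0.48, SE 0.14, limma adjusted p = 0.272), Col4a1 (lower by 0.33, SE 0.11) and Col4a3 (lower by 0.52, SE 0.17, both at a limma adjusted p = 0.297). So the DH response of type IV collagens was not shown to differ between the ages.

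Ratios between collagen chains of one type passed in 9 of 24 tests with means, and in none of these 9 when medians were compared (adjusted p = 0.0879, exact permutation test). Many splits of 5 against 5 rats share the same medians. Even fully separate groups therefore miss the threshold after adjustment unless nearly all 24 tests reach the smallest p, so medians cannot decide on these calls. A ratio of 2 genes within a rat does not depend on the scaling of its library, and 6 ratios were tested in the 4 comparisons with a two-sided exact permutation test over rats (smallest possible p with means = 0.00794). The ratio Col4a1/Col4a2, from the pair whose starts lie 76 bases apart, rose in adult DH by 0.23 on the log2 scale, from −0.08 to 0.19 over the 5 EH rats to 0.21 to 0.37 over the 5 DH rats (exact p = 0.00794, adjusted 0.0317). Between the DH groups it was lower by 0.26 in aged rats (exact p = 0.0159, adjusted 0.0423), and between the EH groups by 0.24 (exact p = 0.0238, adjusted 0.0571). Col4a5/Col4a1 fell in adult DH by 0.23 (exact p = 0.00794, adjusted 0.0317), since Col4a1 rose more than Col4a5. The same ratio was lower by 0.32 in aged than in adult DH rats (exact p = 0.00794, adjusted 0.0317) and by 0.26 in aged than in adult EH rats (exact p = 0.0397, adjusted 0.0680).

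In type V, Col5a1/Col5a2 rose in adult DH by 0.35, the 5 EH rats lying at −1.69 to −1.18 and the 5 DH rats at −1.14 to −0.87 (exact p = 0.00794, adjusted 0.0317), and it was lower by 0.27 in aged than in adult DH rats (exact p = 0.0159, adjusted 0.0423). With ageing under EH the difference was 0.01. In type VI, Col6a1/Col6a2 fell with ageing by 0.25 under EH and by 0.18 under DH (both exact p = 0.00794, adjusted 0.0317), and Col6a3/Col6a1 fell in adult DH by 0.27 (exact p = 0.0159, adjusted 0.0423). In aged DH none of the 6 ratios passed after adjustment, the lowest exact p being 0.0317 for Col4a5/Col4a1 (adjusted 0.0680). Col8a1/Col8a2 passed in no comparison. Without one rat at a time, Col5a1/Col5a2 and Col4a1/Col4a2 in adult DH kept their calls in all 10 fits. Col6a1/Col6a2 under EH lost it without aged EH replicate 1, 2, 5 or 6 (adjusted p = 0.0952), Col6a3/Col6a1 in adult DH without adult EH replicate 1, 5 or 6, and Col4a5/Col4a1 in adult DH without adult DH replicate 1 (adjusted p = 0.0595). All 4 ratios called between the DH groups lost the call without aged DH replicate 3 (adjusted p 0.0635 to 0.0952), and Col5a1/Col5a2 also without aged DH replicate 5 or 6 or adult DH replicate 1 (adjusted p 0.0544 to 0.0952). Each such fit was adjusted over only the comparisons that hold the rat left out. The groups were fully separate in Col6a1/Col6a2 between the ages under EH and DH, and in Col4a5/Col4a1 in adult DH and between the DH groups. They stay separate without any 1 rat, so these losses do not show that a call rested on that rat.

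**Figure D4:**
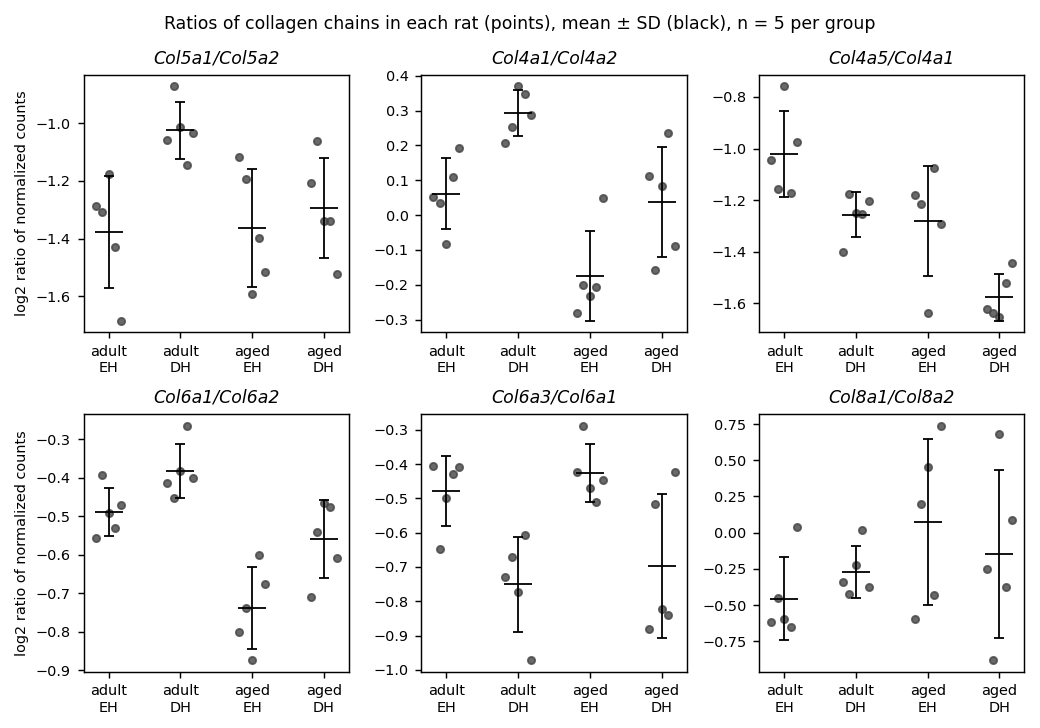
Log2 ratio of the normalised counts of 2 collagen genes (y axis) in each of the 20 rats, by group (x axis), points for rats and black marks for mean ± SD, n = 5 per group. In adult rats Col4a1/Col4a2 and Col5a1/Col5a2 are higher in all 5 DH rats than in all 5 EH rats.

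The counts were also summed over the members of each class, as a description. All 40 members together took 0.128% of the counts in adult EH, 0.135% in adult DH, 0.0957% in aged EH and 0.0861% in aged DH rats. Fibrillar members summed to 15293 to 17243 counts in adult EH and to 10500 to 13149 in aged EH rats, a difference of −0.47 on the log2 scale that grew to −0.69 without Col11a2, the member with the highest mean. Basement membrane members summed to 6478 to 7364 in adult EH and to 4863 to 5695 in aged EH rats (−0.36), with no overlap. Type VI members differed by −0.43 as a sum and by −0.17 as the mean log2 value over members, and the other members by −0.28 as a sum. In adult DH the basement membrane sum was 7982 to 9186 against 6208 to 7076 in adult EH rats (0.36), whereas the fibrillar (0.05), type VI (0.14) and other sums (−0.05) were closer to 0. Without Col4a1 the basement membrane difference was 0.27. In aged DH the fibrillar sum differed by −0.28 and the basement membrane sum by 0.03.

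A further 10 members were called in none of the 4 comparisons. They were Col2a1, Col24a1, Col6a4, Col6a5, Col6a6, Col8a2, Col9a1, Col9a3, Col17a1 and Col22a1, with LFC between −0.68 and 0.48. Col8a2, the partner of Col8a1, came closest, with 249 ± 98.4 counts in aged EH against 380 ± 71.9 in adult EH rats (SD, n = 5) and an LFC of −0.68 under both EH and DH (limma adjusted p = 0.114 and 0.0769).

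Genes that make, process and bind collagen, and markers of cell types, were read beside the members. Their counts stand against shares of all genes of 3.30% lower and 2.69% higher with ageing under EH, 7.67% higher and 4.99% lower in adult DH, 4.05% higher and 3.25% lower in aged DH, and 6.49% lower and 5.94% higher between the ages under DH. Of 31 tested genes for collagen synthesis and cross-linking, 8 fell and 1 rose with ageing under EH (median LFC −0.10). Pcolce, which enhances cleavage of the procollagen end (LFC −0.88), Lox, which cross-links collagen (LFC −0.80), Adamts2, which removes its amino end (LFC −0.67), Serpinh1, the collagen chaperone (LFC −0.50), Plod2, a lysyl hydroxylase (LFC −0.46), and Loxl1 (LFC −0.41) fell. Under DH, 9 fell and 2 rose between the ages (median LFC −0.15), with Lox at −1.24 and Pcolce at −0.84. In adult DH 6 of the 31 rose and 1 fell (median LFC 0.06), among them Plod3, which modifies lysines of collagen (LFC 0.49), and Crtap (LFC 0.27), while Plod2 fell (LFC −0.35). In aged DH 4 of 33 rose and 1 fell, with P3h4 (LFC 0.59) and Plod3 (LFC 0.38) highest.

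Of 13 tested genes for collagen degradation and uptake, Mmp9, a gelatinase, rose with ageing under EH (LFC 1.17), and Mmp14, a membrane-bound collagenase (LFC −0.83), Mrc2, a receptor that takes up collagen (LFC −0.29), and Mmp15 (LFC −0.26) fell. Mmp9 also rose in adult DH (LFC 1.52), in aged DH (LFC 1.37) and between the ages under DH (LFC 1.03). Among 6 tested collagen receptors, Itgb1, the common β chain of collagen-binding integrins, fell with ageing under EH (LFC −0.25) and rose in adult DH (LFC 0.24), 1 of 6 in each case. Between the ages under DH 4 of 6 receptors fell, Itga11 (LFC −0.61), Ddr2 (LFC −0.54), Itga1 (LFC −0.39) and Itgb1 (LFC −0.36).

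Some markers of fibroblasts were lower in aged rats as well. Of 29 tested markers of leptomeningeal and perivascular fibroblasts, 12 fell and 0 rose with ageing under EH (median LFC −0.43), Igf2 (LFC −1.12), Igfbp2 (LFC −1.07) and Lum (LFC −0.77) most. Under DH 20 of 29 fell between the ages (median LFC −0.60). The defining markers Dcn and Slc6a13 had LFC of −0.34 and −0.46 under EH (limma adjusted p = 0.177 and 0.0827) and fell by 0.60 and 0.83 under DH. Of the marker rows, the second Crabp2 row was at 0 in every rat. The summed fibroblast counts overlapped, at 84929 to 141438 in adult EH and 57069 to 101824 in aged EH rats, but Ptgds, which was not called, made up 48.2% to 69.3% of each rat's sum. Without Ptgds, a split chosen after the values were seen, the sums were 43056 to 52891 in adult EH and 21941 to 33409 in aged EH rats. These did not overlap. Under DH the sums without Ptgds were 42982 to 50683 in adult and 22557 to 33556 in aged rats, again without overlap. Igf2, which fell most, was kept in these sums. Its mean was 14701 in adult EH, 6886 in aged EH, 14979 in adult DH and 6262 in aged DH rats. Under the same split, adult DH (42305 to 49692) and adult EH rats (41371 to 50650) overlapped. In adult DH 1 fibroblast marker rose (Slc6a13, LFC 0.40) and 1 fell, and in aged DH the median LFC of the 29 was −0.0026. Their part in the collagen differences was not tested.

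Of 14 mural markers only Pdgfrb fell with ageing under EH by limma (LFC −0.28), 2 rose in adult DH (Lmod1, LFC 0.42, and Cspg4, LFC 0.23) and 7 fell between the ages under DH. Summed mural counts were 28061 to 35923 in adult EH, 22925 to 33796 in aged EH rats, and in the adult DH comparison 27003 to 37988 in DH and 26919 to 34401 in EH rats. Of 14 endothelial markers Cdh5 (LFC −0.35) and Kdr (LFC −0.33) fell with ageing under EH, and Erg (LFC 0.33), Slc2a1 (LFC 0.29) and Kdr (LFC 0.23) rose in adult DH, where their sum was 18067 to 20234 against 17198 to 18455 in EH rats. Slc2a1 rose in aged DH (LFC 0.26). The part of these cells in the basement membrane differences was not tested. With ageing under EH 3 of 9 astrocyte markers fell, and 4 of 7 microglial and 4 of 9 magnocellular markers rose.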

How the data were processed

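The SON of 20 rats was sequenced as poly(A) RNA from stranded libraries. Per the study's methods and the labels' tool names, the authors used STAR for alignment against the Rn6 assembly after trimming, featureCounts for counts per Ensembl gene and DESeq2 for scaling. The deposited values are normalised counts (unit: signal), read counts divided by a size factor that the authors estimated separately within each of the 3 tables. The tables also hold the authors' own fold changes and p-values, which were not used. Values above 0 in all 30 columns were whole multiples of one step (at least 99.95% within 0.01 read), so whole reads were recovered, and the 10 rats present in 2 tables gave the same reads for every gene. Samples were grouped by the labels' age and treatment.

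Each table was tested on its own with limma (version 3.58.1, R 4.3.3) on log2(normalised count + 1), with a variance prior that follows the mean, for genes with a mean of at least 10, with p-values adjusted over every tested gene by Benjamini-Hochberg, a threshold of 0.05 and no LFC filter. A fold change on this scale understates that of low genes. The interaction used all 20 rats, each from the DH table of its age. Aged DH against adult DH rats was added after the data had been seen, on recovered reads scaled by DESeq2 (1.42.0) size factors over 20 rats, with one limma fit over the 4 groups. edgeR (4.0.16, quasi-likelihood) and DESeq2 on the recovered reads were alternatives, also added then. Fits were tested on simulated data. All pseudocounts, filters, scalings, weights, blocks and left-out rats tried are in the closing section. Depth was 24268398 to 30348118 reads per rat. The study's methods state that rats were caged in groups and that cages, not single rats, were assigned at random to EH or DH. Rats of a group may thus be cage-mates, which no label shows and no fit took into account. No label says more of the rats' independence, so p-values measure the spread between these samples.

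Every collagen of the pattern could be named, list genes only where called, at most 6 per list and comparison, and Dcn and Slc6a13 were named after their values were seen. The members, the classes and the gene lists were chosen with earlier results of these data known. Promoter sequences are from RefSeq (GRCr8) and were matched by symbol (31 of 40 members). Figures were drawn with matplotlib 3.10.9. The oligodendrocyte lineage list is not reported here.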

Additional observations from a re-analysis of the deposited data

Results flagged for a closer look

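In 6 of the 54 groups of 5 rats examined for the called collagen genes, 1 rat stood apart from the other four, and chance alone flags about 1 in 20 groups. Col1a1 counted 456 in aged EH replicate 4 and 707 to 789 in the other aged EH rats, so that the aged EH mean is pulled down by 1 rat, while the other four aged rats were still below all adult EH rats. Col20a1 counted 54.3 in aged EH replicate 1 and 14.8 to 25.2 in the others. Col18a1 was high in adult EH replicate 4, at 1976 in the ageing comparison (others 1680 to 1740) and, as the same rat in the other scaling, at 1892 in the adult DH comparison (others 1612 to 1672). Col25a1 counted 986 in adult EH replicate 6 and 788 to 831 in the others. Col4a2 counted 3114 in adult DH replicate 1 and 2453 to 2617 in the others.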

How the results depend on the processing

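No called collagen value changed sign under any alternative run for it (pseudocounts of 0.1 and 10, no filter or a mean of at least 50, 2 rescalings, no trend in the variance prior, array weights, the replicate block, edgeR, DESeq2, size factors over 20 rats, and each rat left out; for aged against adult DH rats edgeR, DESeq2 and each rat left out). Counts that moved by over 1.5 times were as follows. Without the trend, 8 members were called with ageing (516 of all genes), 1 in aged DH (671 of all genes) and 1 gene of all in the interaction. Size factors over 20 rats, in 1 limma fit that also pools the residual variance of the 4 groups, gave 7 members in adult DH and 5 in aged DH. DESeq2 called 55 of all genes in the interaction. The replicate numbers do not pair the rats (same-numbered deviations correlated at −0.083 to 0.162). The replicate block gave 6 members in adult DH (987 of all genes), 1 in aged DH (653 of all genes) and 1 gene of all in the interaction. Leaving out 1 rat gave 11 to 15 members with ageing, 8 to 12 in adult DH, 1 to 4 in aged DH (1 without aged EH replicate 5 or aged DH replicate 3 or 5) and 0 of all members in the interaction. Over all genes it gave 594 to 906 with ageing (599 without aged EH replicate 4, 594 without adult EH replicate 5), 678 to 1186 in aged DH (679 without aged EH replicate 5, 678 without aged DH replicate 5) and 0 to 5 in the interaction. The cause was not tested.

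Medians in place of means left none of the 9 called chain ratios under the threshold (adjusted p = 0.0879): Col6a1/Col6a2 −0.25 with ageing and −0.14 under DH, Col5a1/Col5a2 0.27 and Col4a1/Col4a2 0.23 in adult DH, Col4a5/Col4a1 −0.20 and Col6a3/Col6a1 −0.30 in adult DH, and Col5a1/Col5a2 −0.30, Col4a1/Col4a2 −0.20 and Col4a5/Col4a1 −0.38 between the ages under DH. Leaving out 1 rat gave −0.28 to −0.22 (Col6a1/Col6a2, ageing), −0.27 to −0.17 (Col4a5/Col4a1, adult DH), −0.31 to −0.22 (Col6a3/Col6a1, adult DH), and, under DH between the ages, −0.33 to −0.21 (Col5a1/Col5a2), −0.30 to −0.21 (Col4a1/Col4a2), −0.36 to −0.30 (Col4a5/Col4a1) and −0.20 to −0.14 (Col6a1/Col6a2). Class differences as mean log2 values were −0.17 for type VI with ageing and, between the ages under DH, −0.36 for type VI, −0.42 for the others and −0.51 for all. Without the member with the highest mean they were −0.69 (fibrillar, ageing), 0.27 (basement membrane, adult DH) and −1.03 (fibrillar, between the ages under DH). The planned ratios to Col1a2 were not run, since it is listed at 0. Col6a4 to Col6a6 had low counts and SE of 0.17 to 0.33 (log2), and what size of difference could be called in them was not measured.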

Other observations

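Some rats were low in many collagen genes at once. On the scale common to all 20 rats, aged EH replicate 4 was the lowest of its group in 19 of the 40 members and aged DH replicate 6 in 16 of the 40, against 1 for aged EH replicate 1 and 3 for aged DH replicate 2. In the adult groups the highest such numbers were 15 for adult EH replicate 6 and 12 each for adult DH replicates 4 and 5. Without aged DH replicate 6, 4 members were called in aged DH, 1 higher and 3 lower, and 21 fell between the ages under DH.

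Choroid plexus markers, though low, did not move one way. Clic6 rose with ageing under EH (LFC 0.70) and between the ages under DH (LFC 1.47) and fell in adult DH (LFC −0.59), and Ttr fell between the ages under DH (LFC −2.15), all called by limma. The 5 tested markers other than Clic6, Ttr among them, had LFC of −0.84 to −0.03 with ageing under EH, and none of these passed.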
